A study of Saccharomyces cerevisiae with 11 samples.

Results

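The genes described here are 56 budding yeast genes for factors that build ribosomes, chosen by name from the deposited SK1 annotation: 17 genes named UTP, 15 named NOP, 17 named RRP, 3 named NOC, 2 named NSA and 2 named RPF, each followed by a number. They are 56 of 6707 annotated genes, and the table of candidate open reading frames (ORFs) lists 1962 candidates for them among 192230 in all. Each of the 56 has 1 coding exon, and 54 carry the classification verified. Footprints came from Saccharomyces cerevisiae of the SK1 strain, which sporulates readily, after treatment with 3 µM lactimidomycin (LTM), a drug that stalls ribosomes that have just initiated. The 11 libraries, 1 for each group, were taken from vegetative cells in rich medium at OD600 0.6 (exponential) and at OD600 10 (saturated), from cells 0, 1.5, 3, 4.5, 6, 8, 10 and 22 h after a shift to sporulation medium, and from MATa/a cells at 4.5 h, which cannot enter meiosis. Every ORF has 1 value and no column names a library, so no level by condition, no depth for a library and no replicate error can be given. The values below describe this table and were not tested against other genes. The names alone made the choice, so subunits of the same particles with other names, such as PWP2 and DIP2 of UTP-B, are counted apart below.

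A ribosome is made in the nucleolus, where RNA polymerase I transcribes the long precursor of the rRNAs. UTP-A, UTP-B, UTP-C and the U3 particle assemble on its 5′ part as the small-subunit processome, guide RNA proteins such as Nop1 and Nop58 modify and fold it, and other factors gather on the precursor of the large subunit (pre-60S). The exosome, a barrel with 3′ to 5′ nuclease activity, trims and degrades the by-products. The RRP names cover several exosome subunits, which also act outside ribosome synthesis.

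The starts on which the results turn are shown here from the S288C reference (R64), with 12 bases on each side and the start codon in capitals. Each was located by counting from the S288C gene's own start, and only starts with an identical codon and an equally long reading frame are used, which held for 27 of 32 rated upstream ORFs, 11 of 13 rated start-overlapping ORFs and 5 of 5 rated truncations. UTP18 and UTP14 are shown because a codon just inside the coding region had more evidence than the annotated AUG.
UTP18 annotated AUG (chrX:312692-312718, minus strand): attagtgcgacaATGacaatggcaaca
UTP18 AUG at codon 3 (chrX:312686-312712, minus strand): gcgacaatgacaATGgcaacaaccgca
UTP14 annotated AUG (chrXIII:83078-83104, plus strand): gctaacttaaatATGgcaaaaaagaaa
UTP14 AAG at codon 4 (chrXIII:83087-83113, plus strand): aatatggcaaaaAAGaaatctaagagc
The next starts lie before the annotated AUG and had the highest scores among those placed in S288C.
NOP1 UUG (chrIV:427296-427322, plus strand): gataaatctaagTTGcccattgctttc
NOP6 AUG (chrIV:78197-78223, minus strand): tggcgaaaggtgATGgtgtaaagtaac
UTP20 UUG (chrII:227569-227595, plus strand): tccagttttacgTTGttggccgtattg
UTP22 UUG (chrVII:662288-662314, plus strand): ggtataatcactTTGgggtagaacatt
RRP12 UUG (chrXVI:529665-529691, plus strand): aatttctagattTTGaacagcatctcg
RRP12 CUG (chrXVI:529633-529659, plus strand): cttatttttttaCTGattgaattcaac
The NOP6 and UTP22 windows hold the whole of an upstream ORF of 2 codons, followed by its stop codon. The last set holds AUG codons inside coding regions, in frame for RRP7 and NOP10 and out of frame for NOC3.
RRP7 AUG at codon 9 (chrIII:65530-65556, minus strand): gacattagcgccATGaagaacgggttt
NOP10 AUG at codon 4 (chrVIII:241661-241687, plus strand): aagatgcatttgATGtacactttgggc
NOC3 internal AUG (chrXII:156235-156261, minus strand): tgttagaaggcaATGttttccaaaatg

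Annotated starts are given first. An ORF is called rated when its score, the authors' random forest output between 0 and 1, is above 0.5. Of the 56 genes, 53 had an annotated ORF among the rows analysed here, and all 53 were rated (100%, exact 95% interval 93.3 to 100), against 93.3% of 4814 annotated ORFs over all genes. Annotated ORFs were used to train the score, so neither share is an independent check. The intervals here cover counting error only, and ORFs of the same gene share a transcript. Scores of the 53 had a median of 0.902, from 0.614 in UTP18 to 0.962 in UTP23, against a median of 0.896 over all annotated ORFs. Above a score of 0.9, 28 of the 53 passed (52.8%), against 47.8% of all annotated ORFs.

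The evidence for a start codon in the LTM footprints, a deposited statistic called LTM evidence here, had a median of 4884 over the 53 annotated starts (quartiles 2521 and 11500), against a median of 2956 over all annotated starts (quartiles 623 and 8158). It was above that overall median in 35 of the 53 genes (66.0%), where 50% of all annotated ORFs are so by definition. The deposited notes state no scaling to length or depth, so the order of genes below is one of evidence for a start and not of protein made.

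The highest values belonged to the small-subunit processome. UTP10, a very large subunit of UTP-A, had an LTM evidence of 70780, above 99.6% of all annotated starts. NOP14, which works with Noc4 on the small-subunit precursor, had 38163, and UTP15 and UTP5 of UTP-A had 34406 and 21052. UTP-A binds the rRNA precursor early, and its 5 subunits with an annotated ORF ranged from 8356 in UTP8 to 70780, with a median of 21052. All 5 lay above the upper quartile of all annotated starts. RRP8, a methyltransferase of the large-subunit rRNA, was the exception outside the small-subunit side among the 5 highest genes, with 35911.

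UTP-B, the complex that joins UTP-A on the precursor, was spread much wider. Its subunits UTP13, UTP6 and UTP21 had an LTM evidence of 20474, 7813 and 3894, and UTP18 had 134. The UTP-C subunits RRP7 and UTP22 had 4884 and 3719. The 13 other processome genes had a median of 3598 and held both a value near the top, that of NOP14, and the lowest of all, 21.1 in RRP9, the protein that marks the U3 particle. UTP14, which activates the helicase that releases U3, had 42.2.

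Among guide RNA proteins, NOP58 had 13852, NOP1, the rRNA methyltransferase fibrillarin, 5623, and NOP10, a small core protein of the H/ACA particles, 2568. The ring subunits of the exosome RRP43, RRP42 and RRP45 had 19315, 12231 and 7093, and the cap subunit RRP4 had 6620. RRP6, the nuclear exonuclease bound to the exosome, had 512, and the ring subunit RRP46 had 90.9. The 20 pre-60S genes had a median of 3078. Their highest values after RRP8 were 19842 in NOP2, an rRNA methyltransferase, and 11500 in NOP13, an RNA-binding protein, and their lowest was 312 in RPF1, a Brix-domain protein of the large-subunit precursor. Each particle with more than 3 genes therefore had members both above and below the overall median, except UTP-A. Its UTP4 had no annotated ORF to compare, and subunits with names outside the rule are not included here.

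**Figure D1:**
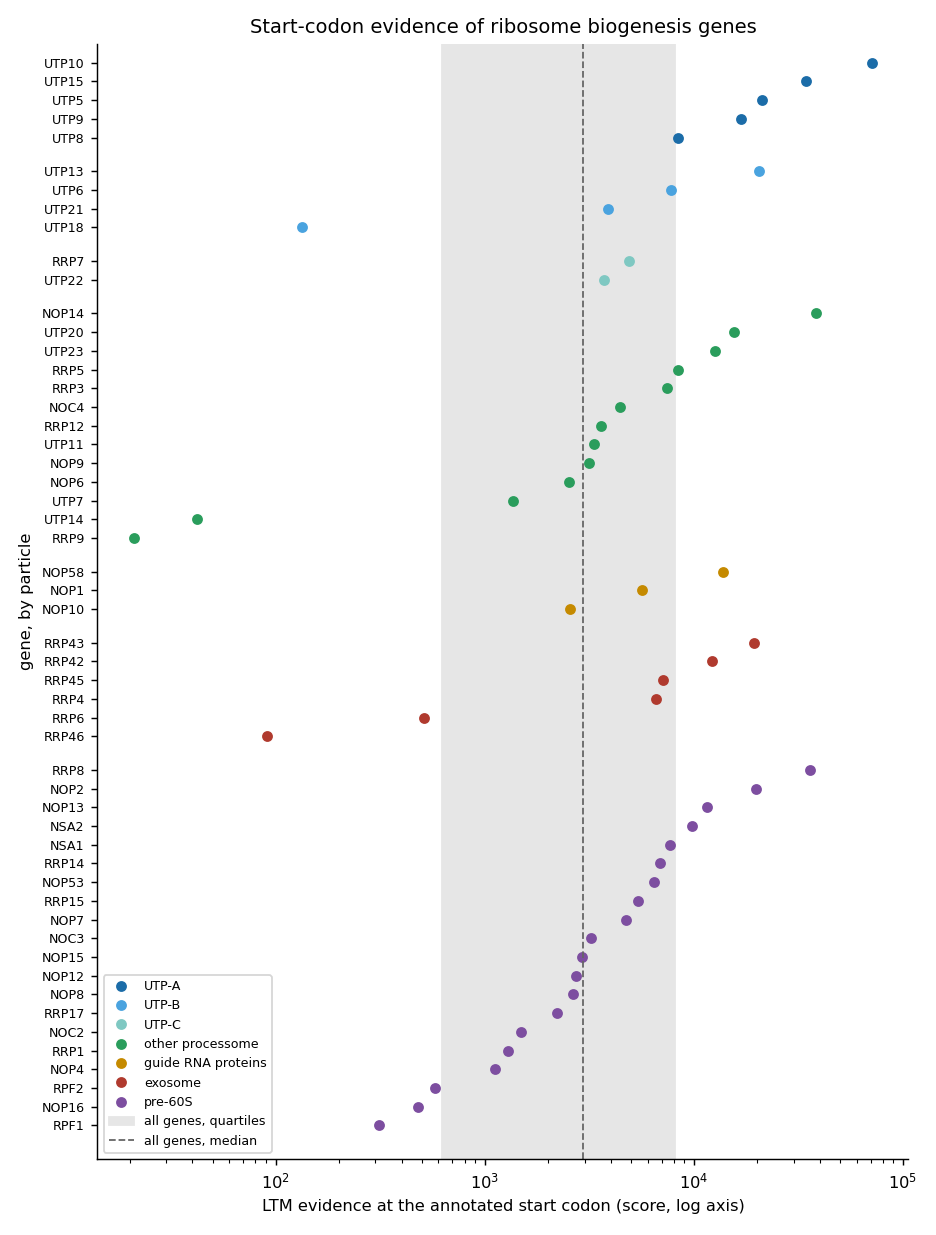
LTM evidence at the annotated start codon (deposited score, log axis) for the 53 genes with an annotated ORF, 1 point a gene, grouped by particle. The dashed line is the median of all annotated ORFs (2956) and the grey band their quartiles (623 to 8158). UTP-A lies above the band, and RRP9, UTP14, RRP46 and UTP18 lie far below it.

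The second readout is the regression value of an ORF in the data set that the notes call CHX, which they do not describe further. Here the genes stood on the other side of the overall distribution. Their median was 0.164 (quartiles 0.0795 and 0.239), against 0.295 over all annotated ORFs (quartiles 0.102 and 0.922), and 12 of the 53 genes (22.6%) were above the overall median, where 50% of all annotated ORFs are so by definition. NOP1 was highest with 1.46, followed by NOP6 with 0.945, RRP42 with 0.924 and RRP43 with 0.902. NOC3, a pre-60S factor, was lowest with 0.0186, and the 4 UTP-B subunits lay between 0.0282 and 0.0740. UTP10, the highest gene by LTM evidence, had 0.183. Each of these values is that of the annotated ORF alone, and other candidates can share its stop codon. Of the 5 rated truncations described below, 3 had a higher CHX value than the annotated ORF, that of UTP18 among them. In NOC3, an unrated truncation at codon 25 had 0.0312 and one at codon 11 had 0.0143. The order is thus one of annotated ORFs and not of translation of whole genes. Pearson's r between the log10 values of the readouts, given as a description across genes, was 0.162 over the 53 genes and 0.456 over 4814 annotated ORFs. The median length was 483 codons in these genes and 401.5 over all annotated ORFs, and the part of length in the lower CHX values was not tested.

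**Figure D2:**
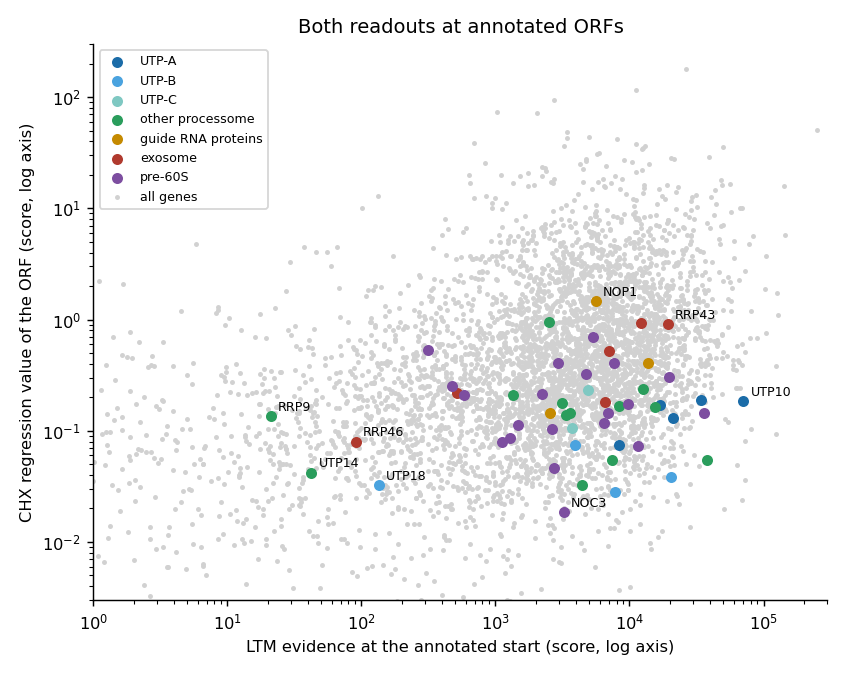
LTM evidence at the annotated start (x, log axis) against the CHX regression value of the same ORF (y, log axis), 1 point a gene, coloured by particle, with all annotated ORFs in grey. Of 4814 grey points, 139 lie outside the axes. Of the 53 coloured points, 35 lie right of the overall median of LTM evidence (2956) and 12 above that of the CHX value (0.295), with NOP1 the highest at 1.46.

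Ribosome biogenesis genes with other names gave part of the same pattern. A list of 85 names stood for 83 genes in the annotation, and 79 had an annotated ORF, of which 78 were rated. Their median CHX regression value was 0.150, close to the 0.164 of the genes chosen by name, against 0.295 over all. Their median LTM evidence was 2794, against 2956 over all annotated starts, so the higher LTM evidence of the genes chosen by name was not seen in this list.

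Of the 1962 candidates, 203 were rated (10.3%), against 13.5% of 192230 over all genes, and 53 of the 203 were annotated ORFs. The others fell into 4 classes: ORFs upstream of the annotated start, ORFs that begin upstream and overlap it in another frame, truncations that begin inside the coding region in its frame, and internal ORFs in another frame. Of 188 upstream candidates, 32 were rated (17.0%, exact 95% interval 11.9 to 23.2), against 22% of 31402 over all genes. Of 67 start-overlapping candidates, 13 were rated (19.4%, interval 10.8 to 30.9), against 20.2% of 6143. Of 1256 internal candidates, 100 were rated (7.96%, interval 6.52 to 9.60), against 10.3% of 100547, and of 365 truncations 5 were rated (1.37%, interval 0.446 to 3.17), against 2.71% of 30117. The list of other biogenesis genes had 16.2% of 284 upstream candidates, 17.6% of 102 start-overlapping candidates, 8.12% of 2008 internal candidates and 1.51% of 596 truncations rated. The overall shares for upstream and start-overlapping ORFs lie within the intervals of the genes chosen by name, and those for truncations do as well. The overall share of internal ORFs lies above the interval, which treats the candidates of a gene as independent. NOC2 and UTP13 held 10 of the 100 rated internal ORFs each, so this is no test of the difference.

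No N-terminal extension was rated. There were 20 candidates in 17 genes, none of them with an AUG, against 4.57% rated among 2735 over all genes. A count of 0 of 20 allows a share of up to 16.8% (upper bound of the exact 95% interval). The best was an AAG 1 codon before the annotated start of NOP10, with a score of 0.281. Of 11 candidates over the stop codon and 2 downstream, 0 were rated, against 7.87% and 2.7% over all genes. The best of these, an AUG in NOC2, scored 0.490.

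**Figure D3:**
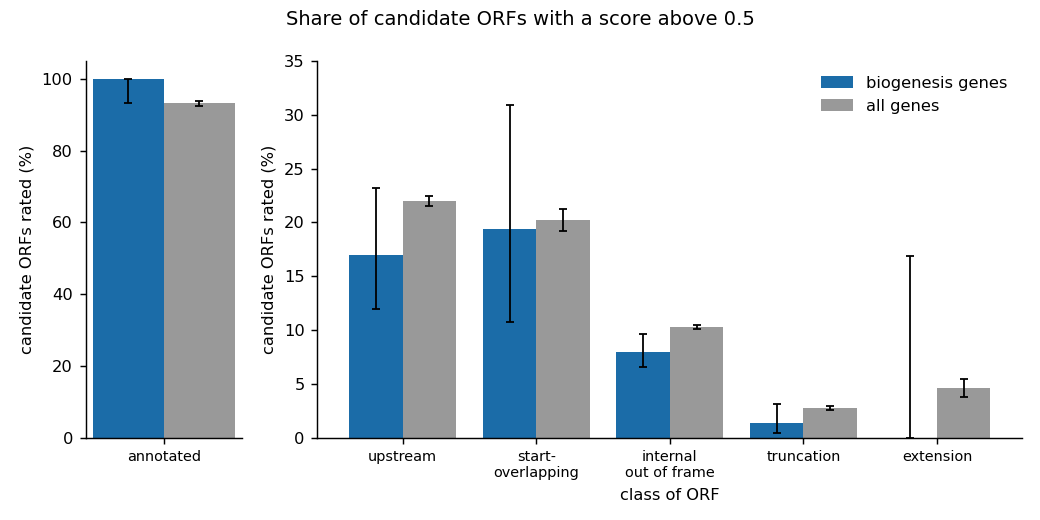
Share of candidate ORFs with a score above 0.5, by class, for ribosome biogenesis genes (blue) and all genes (grey), with exact 95% binomial intervals that cover counting error only. The left panel shows annotated ORFs, at 100% and 93.3%, and the right panel has its own axis for the other classes. The blue bars stand at 17.0% or 19.4% for the leader classes and at 0 for extensions.

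Upstream ORFs are short reading frames in the leader of an mRNA and can lower translation of the coding region that follows, as is well known for GCN4. An upstream candidate was present in 41 of the 56 genes, with a median of 3 a gene, against a median of 5 over all genes with a candidate. A rated one was present in 18 of the 41 (43.9%), against 58.2% of 4759 genes. Rated upstream ORFs of the biogenesis genes were 2 to 27 codons long, with a median of 7, and began 33 to 484 nucleotides before the annotated start, with a median of 161. None of the 45 rated upstream and start-overlapping ORFs overlapped a coding sequence of another gene on the same strand, and 1, in NOP4, overlapped YPL044C on the other strand.

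By start codon, 14 of 67 AUG candidates were rated (20.9%), against 29.3% over all genes, and 18 of 121 near-cognate candidates (14.9%), against 19.4%. Near-cognate codons differ from AUG in 1 base. UUG gave 8 of the 18, from 25 candidates (32.0%), against 33.1% over all genes, and CUG gave 4 of 8 candidates, against 26.2%. AUU gave 3 of 23, against 16.7% over all genes, AUA 2 of 26, against 16.7%, and AAG 1 of 14, against 4.07%. GUG, ACG and AUC gave 0 of 7 each, which allows a share of up to 41.0% for each by the exact 95% interval, against 20.6%, 19.3% and 10.8% over all genes. AGG gave 0 of 4, against 4.44%.

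RRP46 had the highest-scoring upstream ORF of the set, and the only one with more LTM evidence than the annotated start. It is an AUG 61 nucleotides before that start (SK1 chromosome 7, 681240 to 681202, minus strand), has 12 codons and scored 0.930. Its LTM evidence was 3761, against 90.9 at the annotated AUG, a ratio of 41.4. In the CHX data the order was the other way, with 0.0622 for the upstream ORF and 0.0795 for the coding region, a ratio of 0.782. RRP46 also had a rated AUG ORF of 33 codons beginning 98 nucleotides before the start and overlapping it, with a score of 0.606 and an LTM evidence of 1.74. Of these AUG codons in the leader, the one at 61 nucleotides thus had by far the higher LTM evidence.

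NOP6, an RNA-binding protein of the small-subunit precursor, had an AUG upstream ORF of 2 codons 245 nucleotides before the start (SK1 chromosome 4, 82341 to 82333, minus strand), with a score of 0.905. Its LTM evidence of 510 was 0.202 times the 2521 at the annotated start. Its CHX regression value of 0.624 was 0.660 times the 0.945 of the coding region. Over all genes, 33.9% of rated upstream ORFs had an LTM ratio above 0.1. The NOP6 ORF was named for its score, which rests on features of the same data, so both readouts are no separate support for it. The annotated ORF of NOP6 had the second-highest CHX value of the set.

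Among near-cognate upstream ORFs, UTP20, a very large processome protein, had the highest score, 0.898, at a UUG 55 nucleotides before the start (SK1 chromosome 2, 219230 to 219256, plus strand). The LTM evidence was 2768, against 15553 at the annotated start, a ratio of 0.178. The next codon is also a UUG, in the same frame, and was rated at 0.615 with an LTM evidence of 58.2. The upstream codon of the pair thus had the higher LTM evidence. UTP22 had a UUG upstream ORF of 2 codons 58 nucleotides before the start (SK1 chromosome 7, 667137 to 667145, plus strand), with a score of 0.857. Its LTM evidence of 251 was 0.0676 times that of the annotated start, but its CHX regression value of 0.657 was 6.15 times the 0.107 of the coding region. That was the highest CHX ratio of any rated upstream ORF in these genes.

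RRP45 and RRP12 also had near-cognate upstream ORFs with LTM ratios above 0.1. The UUG of RRP45, 114 nucleotides before the start, had an LTM evidence of 4014, against 7093 at the annotated AUG, a ratio of 0.566, with a score of 0.768. Its CHX ratio was 0.0317. RRP12, a HEAT-repeat protein needed for export of ribosomal subunits, had a CUG 78 nucleotides before the start with a score of 0.732, an LTM ratio of 0.290 and a CHX ratio of 0.00844. In both genes the LTM ratio of the upstream ORF was higher than its CHX ratio. After RRP46 and NOP6, the AUG upstream ORFs with the highest scores were those of NOP10 (0.705), UTP6 (0.702) and UTP5 (0.685), with LTM evidence of 7.51, 149 and 138.

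The 32 rated upstream ORFs lay in 18 genes, and over all genes 6915 lay in 2770. UTP5, UTP6 and UTP22 had 4 rated upstream ORFs each, from 11, 11 and 12 candidates, and RRP45 had 3 of 4, so that 4 genes held 15 of the 32. UTP5 and UTP6 belong to different processome complexes, UTP-A and UTP-B. The rated upstream ORFs of UTP5 began 202 to 357 nucleotides before the start and those of UTP6 245 to 484, and their LTM evidence was 0.0190 times that of the annotated start or less. By particle, rated upstream ORFs numbered 5 of 21 candidates in UTP-A, 5 of 17 in UTP-B, 4 of 15 in UTP-C, 5 of 37 in other processome genes, 6 of 27 in the exosome, 1 of 11 in guide RNA proteins and 6 of 60 in pre-60S factors. Over all genes the share was 22%. These counts came from 2, 2, 1, 4, 3, 1 and 5 genes in the same order, so they do not describe the particles as such. Among upstream, start-overlapping and truncated ORFs, the nearest above the cut-off were an AUU in RRP45 (0.507) and an AUA in UTP5 (0.508). The nearest below it in these classes were an AUG in RRP40 (0.494) and a UUG in UTP15 (0.478).

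Start-overlapping ORFs cannot be translated in the same pass as the full coding region without a shift or re-initiation. Rated ones were present in 12 of 33 genes with a candidate (36.4%), against 35.7% of 2882 genes. They began at 2 of 4 AUG candidates, against 52.4% over all genes, and at 11 of 63 near-cognate candidates, against 16.8%, of which 4 were GUG and 3 UUG. The strongest was in NOP1, a UUG 56 nucleotides before the start (SK1 chromosome 4, 438276 to 438332, plus strand) with 18 codons and a score of 0.913. Its stop codon shares 1 base with the annotated AUG. Its LTM evidence was 1141, against 5623 at the annotated start, a ratio of 0.203, and its CHX value was 0.528, against 1.46, a ratio of 0.360. RRP12 had a UUG 46 nucleotides before the start with 32 codons, a score of 0.827 and an LTM ratio of 0.303. RRP12 therefore had a rated CUG and a rated UUG in its leader, in different frames, with LTM evidence of 1043 and 1091. NOC4, the partner of Nop14, had an AUG 37 nucleotides before the start with a score of 0.662 and an LTM ratio of 0.0386. The other 10 rated start-overlapping ORFs scored 0.520 to 0.654, and 9 of these 10 began at a near-cognate codon.

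Over both leader classes, 43 rated ORFs had an annotated start to compare with. Their median LTM ratio was 0.00570, from 0.000105 to 41.4, against a median of 0.0217 over 7418 such ORFs of all genes. In 7 of the 43 (16.3%) the ratio was above 0.1, against 34.3% over all genes. It was above 1 in 1 of 30 rated upstream ORFs, against 16.7% over all genes, and in 0 of 13 start-overlapping ORFs, against 19.8%. The same ratio in the CHX data had a median of 0.290, against 0.127 over all genes. By class, its median was 0.114 in the 30 upstream ORFs, against 0.117 over all genes. In the 13 start-overlapping ORFs it was 0.313, against 0.192. Each ratio has the annotated start as its denominator, and these genes had LTM evidence above and CHX values below the overall medians there. The part of that denominator in the medians was not tested.

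**Figure D4:**
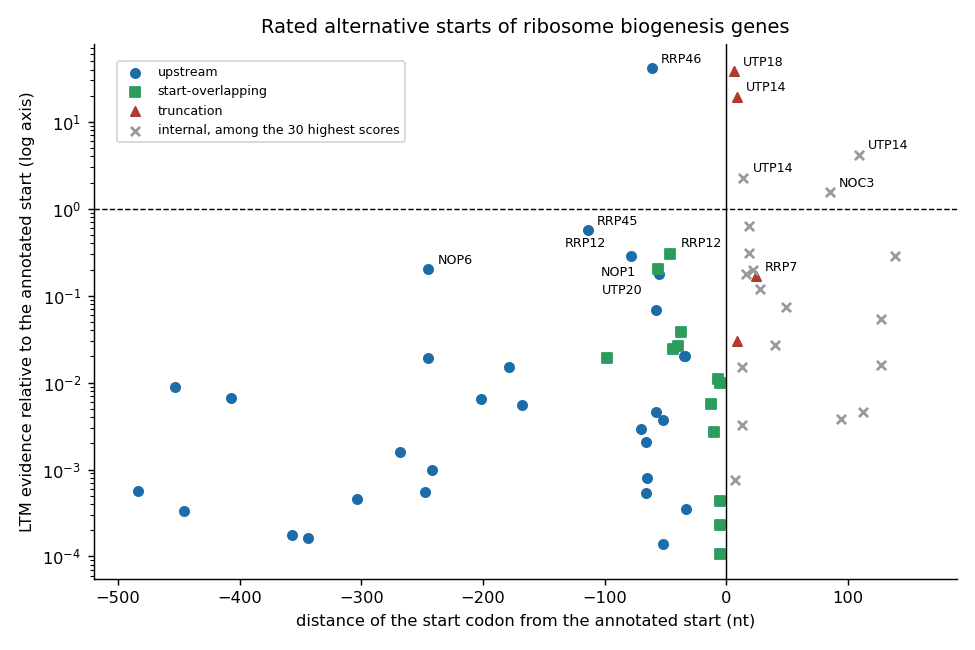
LTM evidence of each rated alternative start relative to the annotated start of its gene (log axis) against its distance from that start in nucleotides, negative values lying upstream. Circles are upstream ORFs, squares start-overlapping ORFs, triangles truncations and crosses internal ORFs among the 30 highest scores, all within 200 nucleotides inside the coding region. RRP46, UTP18, UTP14 and NOC3 have points above the dashed line at 1.

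Rated truncations were found in 5 of 55 genes with a candidate, against 14.7% of 4879 genes. They began at 4 of 45 AUG candidates, against 10.3% over all genes, and at 1 AAG. In 2 of the 5 the start inside the coding region carried more LTM evidence than the annotated one, against 34.5% of rated truncations over all genes. UTP18 had an AUG at codon 3 (SK1 chromosome 10, 323166, minus strand) with an LTM evidence of 5106, against 134 at the annotated AUG, a ratio of 38.0. The score was 0.853 for the codon 3 start and 0.614 for the annotated one, and the CHX regression values were 0.106 and 0.0324, a ratio of 3.28. Both values of UTP18 were thus higher for the ORF from the inner AUG, which would remove 2 residues. The CHX value is that of a whole ORF and not of a start codon. A truncation shares its codons and its stop with the annotated ORF, so the CHX values of such a pair are not separate measurements of their starts. UTP14 had an AAG at codon 4 (SK1 chromosome 13, 90878, plus strand) with an LTM evidence of 822, against 42.2 at the annotated AUG, a ratio of 19.5, and a CHX ratio of 1.99. The scores were 0.854 and 0.618. It was the 1 rated start among 320 near-cognate truncations of these genes, against 1.38% of 25651 over all genes.

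The other 3 truncations began at an AUG. RRP7, a subunit of UTP-C, had one at codon 9 with a score of 0.812, an LTM ratio of 0.167 and a CHX ratio of 0.842. In NOP10 the AUG at codon 4 scored 0.634, with an LTM ratio of 0.0304 and a CHX ratio of 7.43, so its readouts went in opposite directions. NOP4, an RNA-binding protein of the pre-60S particle, had an AUG at codon 473 with a score of 0.645 and an LTM ratio of 0.138. The next highest near-cognate truncations were an ACG at codon 3 of RRP40 (score 0.436), an AAG at codon 26 of RRP1 (0.417), a UUG at codon 87 of UTP30 (0.359) and an AAG at codon 47 of RRP1 (0.327). Per the deposited notes, truncation and internal calls have a very high false positive rate from reads of elongating ribosomes, whose share in these truncations was not tested.

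Internal ORFs in another frame were rated in 36 of the 56 genes, against 65.3% of 5311 genes with a candidate. They began at 39 of 243 AUG candidates (16.0%), against 23% over all genes, and at 61 of 1013 near-cognate candidates (6.02%), against 7.45%. In 3 of 98 with an annotated start to compare, the internal start had more LTM evidence than the annotated one, against 8.47% over all genes. The highest score was 0.891 in NOC3, at an AUG 85 nucleotides inside the coding region that opens 49 codons (SK1 chromosome 12, 160165 to 160016, minus strand). Its LTM evidence of 5004 was 1.55 times the 3238 of the annotated start. Its CHX value of 0.0542 was 2.92 times the 0.0186 of the annotated ORF. That annotated value was the lowest of these genes, and a low denominator raises the ratio. NSA2, a pre-60S factor, had an AUG 40 nucleotides inside with 4 codons and a score of 0.852, and NOP4 a UUG 22 nucleotides inside with 15 codons and a score of 0.843. Their LTM ratios were 0.0269 and 0.197. The caution on false positives holds for these as well.

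In 4 of the 53 genes (7.55%) the strongest alternative start, rated or not, had more LTM evidence than the annotated one, against 23.7% of 4804 genes. These were RRP46 through its upstream AUG, UTP18 and UTP14 through their truncations, and NOC3 through its internal AUG. RRP46, UTP18 and UTP14 were also among the 4 genes with the lowest LTM evidence at the annotated start. That value is the reference of the comparison, so a low one is more easily exceeded. The part of the annotated value in these counts was not tested. RRP9, the lowest at 21.1, had no rated alternative start of any class, while its CHX value of 0.135 lay above 30.7% of annotated ORFs.

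The 3 genes without an annotated ORF among the rows analysed here were RRP40, UTP30 and UTP4. RRP40, a cap subunit of the exosome, had rated upstream AUG ORFs 230 and 154 nucleotides before the start (scores 0.633 and 0.633) and a rated internal AUG (0.665). Its in-frame ACG at codon 3 had the highest CHX value of its 22 candidates after an internal AUU, 0.527 against 0.695, and a score below the cut-off. UTP30 had 1 rated ORF, an internal AUG with a score of 0.505 and an LTM evidence of 2.27. UTP4 of UTP-A had 6 candidates and 0 rated ones, the best scoring 0.357. No ratio to the annotated start could be given for these genes.

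Bases around the starts were read in S288C. At the S288C start codon of each gene, the base 3 positions before it, which is often A in yeast, was A in 36 of 53 (67.9%) and G in 12 (22.6%), against A in 62.4% and G in 19.3% of 4496 annotated starts of genes with 1 coding exon. The 5 genes with the lowest LTM evidence, RRP9, UTP14, RRP46, UTP18 and RPF1, all had A there. In the leaders of these genes, A stood at this position in 16 of 38 rated starts (42.1%) and in 51 of 178 starts that were not rated (28.7%). The 38 are those of 45 rated starts that were placed in S288C, and several come from the same gene. These shares were not computed for leader starts of all genes, and the difference was not tested.

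Genes of ribosome synthesis are known to share 2 promoter motifs, PAC, bound by the repressors Dot6 and Tod6, and RRPE, bound by Stb3. The letters GATGAG (PAC core) and AAAAATTT (RRPE core) were searched on both strands in the 250 bases before each start codon in S288C. GATGAG was present before 45 of the 56 genes (80.4%), before 75 of 83 other biogenesis genes (90.4%) and before 1022 of 6007 genes in all (17.0%). AAAAATTT was present before 43 (76.8%), 69 (83.1%) and 805 (13.4%) of them, and both before 35 (62.5%), 63 (75.9%) and 299 (4.98%). By particle, GATGAG was present before 18 of 20 pre-60S genes and both motifs before 15 of 20. Among the exosome subunits GATGAG was present before 3 of 7 genes and both before 1 of 7, and in UTP-C GATGAG and both were present before 0 of 2. An occurrence of one motif cannot share bases with one of the other, a match is no proof of binding, and the footprint data do not measure transcription.

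**Figure D5:**
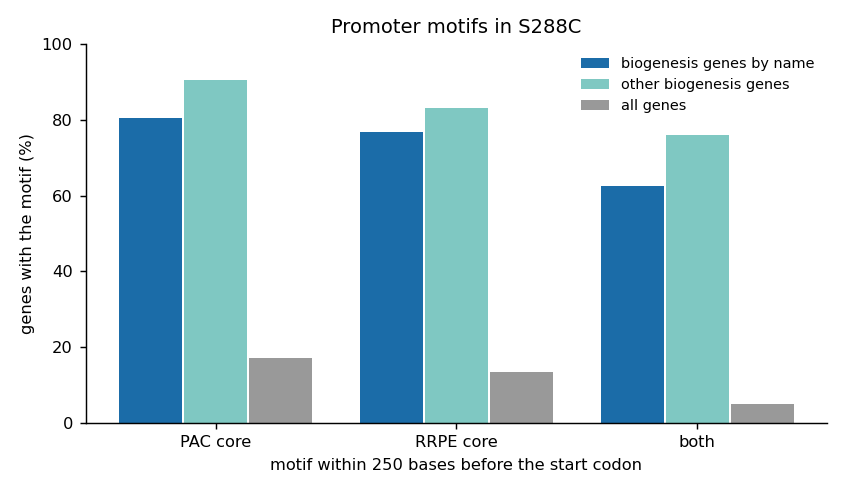
Share of genes with the PAC core, the RRPE core or both within 250 bases before the start codon in S288C, for the 56 genes chosen by name, 83 other biogenesis genes and all 6007 genes. The bars for both motifs stand at 62.5%, 75.9% and 4.98%.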

How the data were processed

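Per the labels' protocols, cells were frozen and milled before footprints were prepared, and the tools listed are Bowtie2, CASAVA and bcl2fastq 2.17, per the submitters' processing notes. They give no settings. The authors' table gives, per candidate ORF, scores deposited with notes: LTM evidence, CHX regression values, a random forest score from 6 features, and a rating adjusted from it. A further deposited column, a ratio to the largest CHX value at a shared stop codon, is not reported on its own here. Names of these columns end in an unexplained nosat, and it is uncertain which libraries they cover. The table has 0 columns of a single library.

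Genes were matched by name, and SK1 coordinates are counted from 1. Counts, medians and exact binomial intervals were computed with Python 3.11.15, pandas 2.3.3 and SciPy 1.17.1, and the interval code was tested on simulated data. Cut-offs of 0.9, 0.8 and 0.1, other member sets and other measures were alternatives. The genes, lists and naming rule (rated extensions and truncations, highest scores per class, highest and lowest LTM evidence, genes without an annotated ORF) were chosen with earlier results of these data known. Other genes named beside counts were chosen after their values were seen, as were the promoter motifs and the base before the start. No p-value was computed.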

Additional observations from a re-analysis of the deposited data

How the results depend on the processing

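The score cut-off decided most counts. Above 0.9, rated shares were 52.8% of annotated ORFs, 1.06% of upstream, 1.49% of start-overlapping, 0% of truncated and 0% of internal ORFs, and 2.99% of AUG and 0% of near-cognate upstream ORFs, with genes numbering 2 (upstream), 1 (start-overlapping), 0 (truncation) and 0 (internal). Over all genes the class shares above 0.9 were 47.8%, 1.15%, 1.43%, 0.129% and 0.218% in the same order. Above 0.8 the shares were 92.5% (annotated), 2.13% (upstream), 2.99% (start-overlapping) and 0.318% (internal), with 2.99% of AUG and 1.65% of near-cognate upstream ORFs, in 4 (upstream), 2 (start-overlapping), 3 (truncation) and 4 (internal) genes, against 79.3%, 4.92%, 5.37% and 1.16% over all genes for the first 4 shares. Above 0.1 they were 98.9% (upstream), 92.5% (start-overlapping), 14.5% (truncation), 95.9% (internal), 100% (AUG upstream) and 98.3% (near-cognate upstream), in 41 (upstream), 31 (start-overlapping), 22 (truncation) and 56 (internal) genes, with an extension in 1 gene. At that cut-off nearly every upstream candidate passes, over all genes too (97.6%). The other shares over all genes above 0.1 were 88.8% (start-overlapping), 21.8% (truncation) and 94.3% (internal). For extensions 1 of 20 passed, against 23.3% over all genes. Above 0.8, 0.822% of truncations were rated, against 0.804% over all genes. Gene counts and AUG and near-cognate shares at these cut-offs are given for the biogenesis genes only. The share of genes above the overall median, 66.0% by LTM evidence, was 45.3% by the deposited rating, whose overall median covers rated ORFs only, and 22.6% by CHX value, added after seeing the data. The median LTM ratio of leader ORFs was 0.203 over the 6 scoring above 0.8, also added later. The score rests on features of the same data, so a higher cut-off can itself select ORFs with more LTM evidence. No conclusion is drawn from that value. Leaving out exosome subunits, adding the other biogenesis genes or keeping genes with a rated annotated ORF kept each of the 6 class shares within its interval. Leaving out exosome subunits did so for the AUG and near-cognate upstream shares. These sets share many ORFs with the main set, and the last one keeps all 53 annotated ORFs by definition. They are therefore a weak check. Depth per library is unknown. No paired analysis was possible because each group has 1 library and the table has no columns for libraries.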
